A study of Mus musculus with 8 samples.

Results

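The genes described here are 10 genes of the ATF4 branch of the integrated stress response, out of 16940 genes measured by transient transcriptome sequencing (TT-seq) in mouse embryonic stem cells. They were taken by symbol (Atf4, Atf5, Ddit3, Ddit4, Trib3, Chac1, Asns, Psat1, Phgdh and Shmt2), and all 10 were measured and passed the filter on low values. TT-seq counts RNA made during a short pulse, here 15 min with 400 µM 4-thiouridine, so its values follow new transcription and not the amount of mRNA or protein. Every library came from E14 stem cells whose CTCF, a protein that binds DNA and holds chromatin loops in place, is fused to an auxin-inducible degron (AID), so that the auxin IAA triggers its loss. Of the 4 groups, 1 was the control overexpression line with no IAA, called the untreated control below. The others had 12 h of IAA and were the same control line, a line overexpressing wild-type CTCF and a line overexpressing a mutated CTCF. Each group had 2 replicates. The mutation, and whether a line is 1 clone, are not given in the sources used here. No group had IAA without the degron, so loss of CTCF and other effects of IAA cannot be told apart. The serum-free medium held leukaemia inhibitory factor, inhibitors of MEK and GSK3, and non-essential amino acids.

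The integrated stress response starts when a kinase (PERK, GCN2, PKR or HRI) phosphorylates the translation factor eIF2α. Bulk translation then falls while the mRNA of the transcription factor ATF4 is translated more. ATF4, with partners such as C/EBP proteins, activates genes for amino acid synthesis, amino acid uptake, tRNA charging and feedback. Because ATF4 protein is set largely at translation, transcription of Atf4 and activity of ATF4 are different quantities, and only the first was measured. Serine and one-carbon enzymes also serve growth in dividing cells, so these genes are active without stress.

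The libraries held 15671114 to 21561141 reads over the listed genes. The fewest reads behind any value of the 10 genes were 70, at Ddit3, and Asns had at least 5612 in every library. All 10 naive stem cell markers checked were measured, with summed levels of 54639 and 55334 normalized reads in the untreated libraries, 56696 and 58301 in the control with IAA, 61529 and 64964 with wild-type CTCF, and 61662 and 64057 with mutated CTCF. These sums were lowest untreated and highest in both CTCF lines, as Asns below, and 0 of 7 fibroblast markers were among the genes measured. Of the 10 naive markers, however, 2 rose and 4 fell with IAA, where 19.4% and 18.4% of all genes did. Tfcp2l1 alone rose from 13438 to 18581 normalized reads with IAA, by more than the sum did. Summed neural markers (2 of 6 measured, nearly all of it Nes) had 156 and 159 normalized reads in the untreated libraries. They had 221 and 223 in the control with IAA, 223 and 263 with wild-type CTCF, and 274 and 284 with mutated CTCF. The sum was thus lowest untreated and highest with mutated CTCF, as Ddit3, Trib3 and Asns below. Pax6, the other gene of the sum, averaged 7.2 untreated, 12.1 in the control with IAA, 15.5 with wild-type and 4.5 with mutated CTCF. Pax6 was thus lowest with mutated CTCF, and it was too low to be tested. Nes, chosen as Pdgfra was after its values were seen, passed in 5 of the 6 contrasts, among them IAA (log2 change 0.48, SE 0.11, adjusted p = 0.00039, limma). Summed primitive endoderm markers (4 of 7) had 195 and 228 in the untreated libraries, 269 and 331 in the control with IAA, 233 and 262 with wild-type CTCF, and 256 and 259 with mutated CTCF. Within them Pdgfra rose with IAA from 19.1 to 67.8 (log2 change 1.78, SE 0.21, adjusted p = 7.7e-09), as did Gata4 (log2 change 0.64, SE 0.14, adjusted p = 0.00036). Gata6 went the other way, from 77.4 to 51.1 (log2 change -0.59, SE 0.21, adjusted p = 0.024). Over the alternatives its value ran from -0.83 to -0.34, and its call was lost in 3 of them. Summed trophoblast markers (4 of 7, mostly Tfap2c) had 622 and 630.2 untreated, and 656 and 692 in the control with IAA. They had 899 and 986 with wild-type CTCF and 619 and 661 with mutated CTCF, highest with wild-type CTCF as Atf4 and Ddit4 below. Tfap2c, Eomes and Gata3 were each highest with wild-type CTCF. Krt8 was not, at 17.0 untreated, 10.8 in the control with IAA, 13.9 with wild-type and 20.8 with mutated CTCF. The part of all these markers in the results below was not tested. In such bulk samples fewer cells of a kind and less RNA per cell cannot be told apart. Replicates differed by more than counting error, with a chi-square per degree of freedom of 1.30 to 1.57 in 3 groups and 3.07 with wild-type CTCF. The labels do not say whether replicates were separate cultures, so p-values measure only the spread between these libraries.

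Among the regulators, Atf4 itself (ENSMUSG00000042406.8, chromosome 15, 80255184 to 80257541, GRCm38) stood at 1158 and 1141 normalized reads in the untreated libraries, 1356 and 1212 in the control with IAA, 1369 and 1478 with wild-type CTCF, and 1277 and 1309.9 with mutated CTCF. Both untreated libraries lay below the other 6 and the wild-type CTCF libraries were the highest, while the control with IAA spanned the mutated CTCF values. Atf5 (ENSMUSG00000038539.15, chromosome 7, 44812256 to 44816658), which encodes a related factor also under translational control, stood at 145 and 139.7 in the untreated control, 283 and 218 in the control with IAA, 211 and 257 with wild-type CTCF, and 194 and 170.0 with mutated CTCF. Its untreated libraries were the lowest of the 8 and its mutated CTCF libraries came next, while the other groups overlapped. The libraries of the control with IAA were 0.38 apart at Atf5 on the log2 scale, the widest gap of any member in that group. Atf5 shares 571 bases with Nup62, which is not in the table, and 272 bases with Il4i1, both on the opposite strand, and since the strand setting of the counting is not given in the sources used here, reads there cannot be told apart. Il4i1 went the other way with IAA, from 366 ± 12 to 312 ± 23 normalized reads (SD, n = 2; log2 change -0.23, SE 0.086, adjusted p = 0.03, limma).

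Ddit3 (ENSMUSG00000025408.15, chromosome 10, 127290774 to 127296288) encodes CHOP, a factor of prolonged stress. It stood at 64.4 and 72.4 normalized reads in the untreated libraries, 87.0 and 77.0 in the control with IAA, 80.4 and 85.6 with wild-type CTCF, and 94.0 and 104 with mutated CTCF. The untreated libraries were lowest and the mutated CTCF libraries highest, with the other groups overlapping between them. GENCODE M21 holds another entry named Ddit3 that covers 2925 bases on the same strand, and Mars1 overlaps Ddit3 by 68 bases on the other, so its level is uncertain. Trib3 (ENSMUSG00000032715.9, chromosome 2, 152337422 to 152344032) encodes a pseudokinase that feeds back on ATF4 and CHOP. Its libraries stood at 197 and 177 normalized reads without IAA, 222 and 257 with IAA, 207 and 220.4 with wild-type CTCF, and 288 and 291 with mutated CTCF. The mutated CTCF libraries were above the other 6 and the untreated ones below them.

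Chac1 (ENSMUSG00000027313.3, chromosome 2, 119351229 to 119354381) encodes an enzyme that breaks down glutathione and is a widely used ATF4 readout. It stood at 97.0 and 123 normalized reads in the untreated libraries, 95.3 and 88.0 in the control with IAA, 85.7 and 82.4 with wild-type CTCF, and 140.0 and 149 with mutated CTCF. Mutated CTCF was again above the other 6 libraries, but here the wild-type CTCF libraries were the lowest. The untreated libraries of Chac1 were 0.34 apart on the log2 scale, the widest gap of any member in that group. Ddit4 (ENSMUSG00000020108.4, chromosome 10, 59949669 to 59951834) encodes REDD1, an inhibitor of mTORC1. It stood at 165 and 154 normalized reads in the untreated libraries, 156 and 164 in the control with IAA, 213 and 223 with wild-type CTCF, and 158 and 151 with mutated CTCF. The wild-type CTCF libraries stood above the other 6, which overlapped.

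Of the metabolic genes, Asns (ENSMUSG00000029752.12, chromosome 6, 7675169 to 7693254) encodes asparagine synthetase. It stood at 5567 and 5734 normalized reads in the untreated libraries, 6685 and 6707 in the control with IAA, 6908 and 7511 with wild-type CTCF, and 7687 and 7746 with mutated CTCF. The 4 groups lay in this order without overlap. Psat1 (ENSMUSG00000024640.9, chromosome 19, 15904678 to 15947337) and Phgdh (ENSMUSG00000053398.11, chromosome 3, 98313170 to 98339990) encode enzymes of serine synthesis, Phgdh that of the first step. Psat1 stood at 1881 and 1917 normalized reads without IAA, 1845 and 1950.1 with IAA, 1884 and 2090.4 with wild-type CTCF, and 2179 and 2241 with mutated CTCF. Phgdh stood at 542 and 540.5 without IAA, 543 and 546 with IAA, 484 and 508 with wild-type CTCF, and 592 and 656 with mutated CTCF. For both genes the mutated CTCF libraries were the highest, and for Phgdh the wild-type CTCF libraries were the lowest. Shmt2 (ENSMUSG00000025403.5, chromosome 10, 127517123 to 127522444), which makes one-carbon units from serine in mitochondria, stood at 306 and 304 in the untreated control, 354 and 333 in the control with IAA, 329.6 and 446 with wild-type CTCF, and 384 and 388 with mutated CTCF. Its wild-type CTCF libraries were 0.44 apart on the log2 scale, the widest gap of any member in any group, and lay on either side of the mutated CTCF values. Psat1 shares 556 bases with the pseudogene Gm3329, and Shmt2 shares 32 bases with Ndufa4l2. Both lie on the opposite strand and neither is among the genes measured, so reads there cannot be told apart, as at Atf5.

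**Figure D1:**
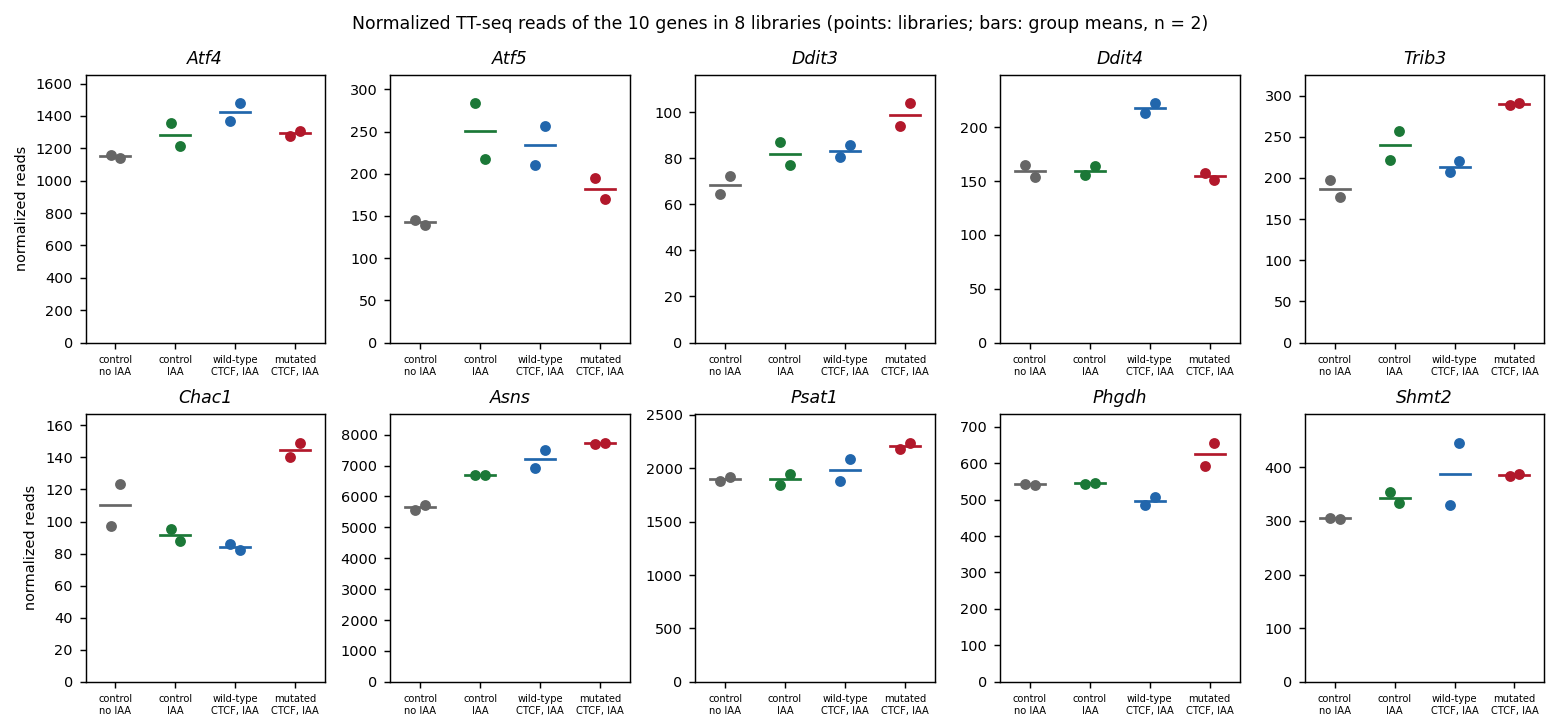
Normalized TT-seq reads (vertical axis, linear from 0) of the 10 genes in the 8 libraries; points are libraries and bars are the means of the 2 libraries of each group. Ddit3, Trib3, Chac1, Asns, Psat1 and Phgdh are highest in both mutated CTCF libraries, and Atf4 and Ddit4 in both wild-type CTCF libraries.

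The promoters of Asns, Chac1 and Trib3 are shown because theirs were the windows that held the letters of the C/EBP-ATF response element, the type of site bound by ATF4 with a C/EBP partner. RefSeq windows on GRCm38.p6, from 250 bases before to 50 bases after the gene start, were found for all 10 members. Capitals mark matches to TGATGNAA on either strand, and each sequence reads 5′ to 3′ along its gene:
Asns, chr6:7693160-7693459, minus strand: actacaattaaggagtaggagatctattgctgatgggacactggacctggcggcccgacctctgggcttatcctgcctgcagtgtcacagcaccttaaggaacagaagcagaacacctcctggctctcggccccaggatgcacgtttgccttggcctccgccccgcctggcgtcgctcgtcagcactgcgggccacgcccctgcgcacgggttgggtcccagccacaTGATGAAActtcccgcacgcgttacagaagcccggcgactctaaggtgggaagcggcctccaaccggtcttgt
Chac1, chr2:119350992-119351291, plus strand: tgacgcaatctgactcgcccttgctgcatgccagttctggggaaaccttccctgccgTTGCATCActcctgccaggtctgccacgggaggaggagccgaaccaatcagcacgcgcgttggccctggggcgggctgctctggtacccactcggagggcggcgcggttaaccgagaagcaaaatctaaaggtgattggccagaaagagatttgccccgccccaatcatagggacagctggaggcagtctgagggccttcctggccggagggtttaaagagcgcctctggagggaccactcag
Trib3, chr2:152344011-152344310, minus strand: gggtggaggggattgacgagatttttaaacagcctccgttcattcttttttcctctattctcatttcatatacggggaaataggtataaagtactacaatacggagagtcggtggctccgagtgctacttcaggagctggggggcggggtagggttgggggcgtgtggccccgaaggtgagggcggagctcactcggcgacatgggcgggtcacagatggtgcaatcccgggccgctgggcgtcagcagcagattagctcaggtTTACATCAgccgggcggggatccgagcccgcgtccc
The match began 23 bases before the start in Asns. In the other genes it lay on the opposite strand, from 193 bases before the start in Chac1 and from base 15 after it in Trib3. These letters were in 4.06% of 27025 promoters of the same length, taking 1 window per gene, and in 2.28% of the 11912 promoters of genes in the table. The palindromic CRE letters TGACGTCA, which read the same on both strands, were in 0 of the 10 members and in 1.88% of all promoters and 3.02% of those of table genes. A match describes letters, not binding, and other parts of the genes were not searched.

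IAA was first compared with no IAA in the control line, the contrast meant to deplete CTCF, whose protein level is not measured here. Of the 10 genes, 4 rose, 0 fell and 6 did not pass an adjusted p of 0.05, where 37.7% of the 15818 genes tested passed, 19.4% higher and 18.4% lower. All tests come from a limma fit to the 8 libraries, and every log2 change is on the log2(value + 1) scale. Atf5 rose most, from 143 ± 4.1 to 251 ± 46 normalized reads (SD, n = 2; log2 change 0.80, SE 0.12, adjusted p = 1.2e-06). Asns rose from 5651 ± 118 to 6696 ± 16 (log2 change 0.24, SE 0.035, adjusted p = 3.8e-07), Trib3 from 187 ± 15 to 239 ± 25 (log2 change 0.35, SE 0.10, adjusted p = 0.0069) and Atf4 from 1149.9 ± 12 to 1284 ± 102 (log2 change 0.16, SE 0.056, adjusted p = 0.024). Ddit3 (log2 change 0.26, SE 0.16, adjusted p = 0.22), Shmt2 (log2 change 0.17, SE 0.097, adjusted p = 0.17) and Chac1 (log2 change -0.25, SE 0.15, adjusted p = 0.19) did not pass. Neither did Psat1, Phgdh and Ddit4, whose log2 changes were -0.0015, 0.0076 and 0.00097. The median over the 10 genes was 0.16, beside -0.0016 over all genes tested, and 8 of 10 had libraries that did not overlap between the groups, beside 68.2% of all genes. Atf5 and Asns passed in all 13 alternatives run for each result. The Atf4 call was lost with equal library totals (adjusted p = 0.095), without the trend (adjusted p = 0.17), without untreated control replicate 1 (adjusted p = 0.084), without untreated control replicate 2 (adjusted p = 0.14) and without control-with-IAA replicate 1 (0.076, adjusted p = 0.42). That of Trib3 was lost without untreated control replicate 2 (adjusted p = 0.13) and without control-with-IAA replicate 2 (adjusted p = 0.14). Among fits that kept the call, the value moved by over 1.5 times for Atf4 without control-with-IAA replicate 2 (0.24).

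Wild-type CTCF was then set against the control line, both with IAA. These are different lines, and neither overexpression line has a library without IAA here, so differences between lines and the added CTCF cannot be told apart. Here 3 of the 10 genes rose, 0 fell and 7 did not pass, where 31.6% of all genes passed, 21.5% higher and 10% lower. Ddit4 rose from 160.0 ± 5.5 to 218 ± 6.5 normalized reads (log2 change 0.44, SE 0.12, adjusted p = 0.0029). Atf4 rose to 1424 ± 77 (log2 change 0.15, SE 0.056, adjusted p = 0.035) and Asns to 7209.7 ± 426 (log2 change 0.11, SE 0.035, adjusted p = 0.02). Atf5 (log2 change -0.095, SE 0.12, adjusted p = 0.59) and Trib3 (log2 change -0.16, SE 0.10, adjusted p = 0.26), which had risen with IAA, did not pass in this contrast. The median over the 10 genes was 0.043, beside 0.057 over all genes tested, and 6 of 10 had libraries that did not overlap between the groups, beside 64.4% of all genes. Ddit4 passed in all 13 alternatives. The Atf4 call was lost with median-of-ratios scaling (0.094, adjusted p = 0.16), with equal library totals (adjusted p = 0.068), with only those groups fitted (adjusted p = 0.052), without the trend (adjusted p = 0.2), without control-with-IAA replicate 2 (0.070, adjusted p = 0.48) and without wild-type CTCF replicate 2 (0.10, adjusted p = 0.33). That of Asns was lost with median-of-ratios scaling (0.049, adjusted p = 0.22), without the trend (adjusted p = 0.24), without control-with-IAA replicate 1 (adjusted p = 0.11), without control-with-IAA replicate 2 (adjusted p = 0.089) and without wild-type CTCF replicate 2 (0.045, adjusted p = 0.51). Among fits that kept the call, the value moved by over 1.5 times for Atf4 without control-with-IAA replicate 1 (0.23) and Asns without wild-type CTCF replicate 1 (0.17). Without wild-type CTCF replicate 1, Psat1 (0.14, adjusted p = 0.049) and Shmt2 (0.38, adjusted p = 0.0027) passed as higher. Phgdh passed as lower with median-of-ratios scaling (-0.19, adjusted p = 0.02).

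In the line with mutated CTCF, set against the control with IAA, 5 of the 10 genes rose, 1 fell and 4 did not pass, where 34.3% of all genes passed, 22% higher and 12.4% lower. Chac1 rose from 91.6 ± 5.2 to 145 ± 6.6 normalized reads (log2 change 0.65, SE 0.15, adjusted p = 6e-04). Among the members, Psat1 rose from 1898 ± 74 to 2210.3 ± 44 (log2 change 0.22, SE 0.049, adjusted p = 0.00039) and Phgdh from 544 ± 1.7 to 624 ± 45 (log2 change 0.20, SE 0.072, adjusted p = 0.031). Psph, a serine synthesis gene outside the 10, did not rise (349 against 366 normalized reads). Asns rose to 7716 ± 42 (log2 change 0.20, SE 0.035, adjusted p = 1.4e-05) and Trib3 to 289.5 ± 1.6 (log2 change 0.28, SE 0.10, adjusted p = 0.038). Atf5 fell to 182 ± 17 (log2 change -0.45, SE 0.12, adjusted p = 0.0036). Atf4 (log2 change 0.013, SE 0.056, adjusted p = 0.89), Ddit3 (log2 change 0.27, SE 0.16, adjusted p = 0.21), Shmt2 (log2 change 0.17, SE 0.097, adjusted p = 0.18) and Ddit4 (log2 change -0.050, SE 0.12, adjusted p = 0.78) did not pass. The median over the 10 genes was 0.20, beside 0.055 over all genes tested, and 8 of 10 had libraries that did not overlap between the groups, beside 65.1% of all genes. The same control libraries with IAA enter all 3 contrasts so far, so their values stand side by side and are not independent. Chac1 passed in all 13 alternatives. Asns was lost without the trend (adjusted p = 0.055). Psat1 was lost without the trend (adjusted p = 0.07). Atf5 was lost without the trend (adjusted p = 0.1), without control-with-IAA replicate 1 (-0.26, adjusted p = 0.2) and without mutated CTCF replicate 2 (adjusted p = 0.062). Trib3 was lost with median-of-ratios scaling (adjusted p = 0.076), with equal library totals (adjusted p = 0.056), without the trend (adjusted p = 0.092), without control-with-IAA replicate 1 (0.17, adjusted p = 0.35), without mutated CTCF replicate 1 (adjusted p = 0.1) and without mutated CTCF replicate 2 (adjusted p = 0.13). Phgdh was lost with median-of-ratios scaling (adjusted p = 0.077), without the trend (adjusted p = 0.083), without control-with-IAA replicate 1 (adjusted p = 0.11), without control-with-IAA replicate 2 (adjusted p = 0.094) and without mutated CTCF replicate 2 (0.12, adjusted p = 0.33).

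The CTCF forms were compared with each other directly, both with IAA. With mutated CTCF 5 of the 10 genes were higher than with wild-type CTCF, 2 were lower and 3 did not pass, where 34.7% of all genes passed, 16.3% higher and 18.4% lower. Chac1 stood at 145 ± 6.6 against 84.0 ± 2.3 normalized reads (log2 change 0.78, SE 0.15, adjusted p = 6.8e-05), Trib3 at 289.5 ± 1.6 against 214 ± 9.3 (log2 change 0.44, SE 0.10, adjusted p = 0.0012) and Phgdh at 624 ± 45 against 496 ± 17 (log2 change 0.33, SE 0.072, adjusted p = 0.00035). Psat1 (log2 change 0.16, SE 0.049, adjusted p = 0.011) and Asns (log2 change 0.10, SE 0.035, adjusted p = 0.026) were higher by less. In the other direction, Ddit4 stood at 155 ± 4.6 against 218 ± 6.5 (log2 change -0.49, SE 0.12, adjusted p = 0.00084) and Atf5 at 182 ± 17 against 234 ± 33 (log2 change -0.35, SE 0.12, adjusted p = 0.022). Atf4 lay at the threshold (log2 change -0.14, SE 0.056, adjusted p = 0.051), and Ddit3 (log2 change 0.25, SE 0.16, adjusted p = 0.24) and Shmt2 (log2 change 0.0095, SE 0.097, adjusted p = 0.95) did not pass. The median over the 10 genes was 0.13, beside -0.0087 over all genes tested, and 9 of 10 had libraries that did not overlap between the groups, beside 65.5% of all genes.

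Chac1, Trib3, Phgdh and Ddit4 differed between the CTCF forms in all 13 alternatives. Atf5 was lost without the trend (adjusted p = 0.17), without wild-type CTCF replicate 2 (-0.21, adjusted p = 0.28) and without mutated CTCF replicate 2 (adjusted p = 0.18). Psat1 was lost without the trend (adjusted p = 0.15), without wild-type CTCF replicate 1 (0.080, adjusted p = 0.29) and without mutated CTCF replicate 2 (adjusted p = 0.086). Asns was lost without the trend (adjusted p = 0.25), without wild-type CTCF replicate 1 (0.039, adjusted p = 0.53), without mutated CTCF replicate 1 (adjusted p = 0.09) and without mutated CTCF replicate 2 (adjusted p = 0.12). Among fits that kept the call, the value moved by over 1.5 times for Asns without wild-type CTCF replicate 2 (0.16). Atf4 passed as lower in 6 alternatives, among them the fit without wild-type CTCF replicate 1 (-0.19, adjusted p = 0.015).

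**Figure D2:**
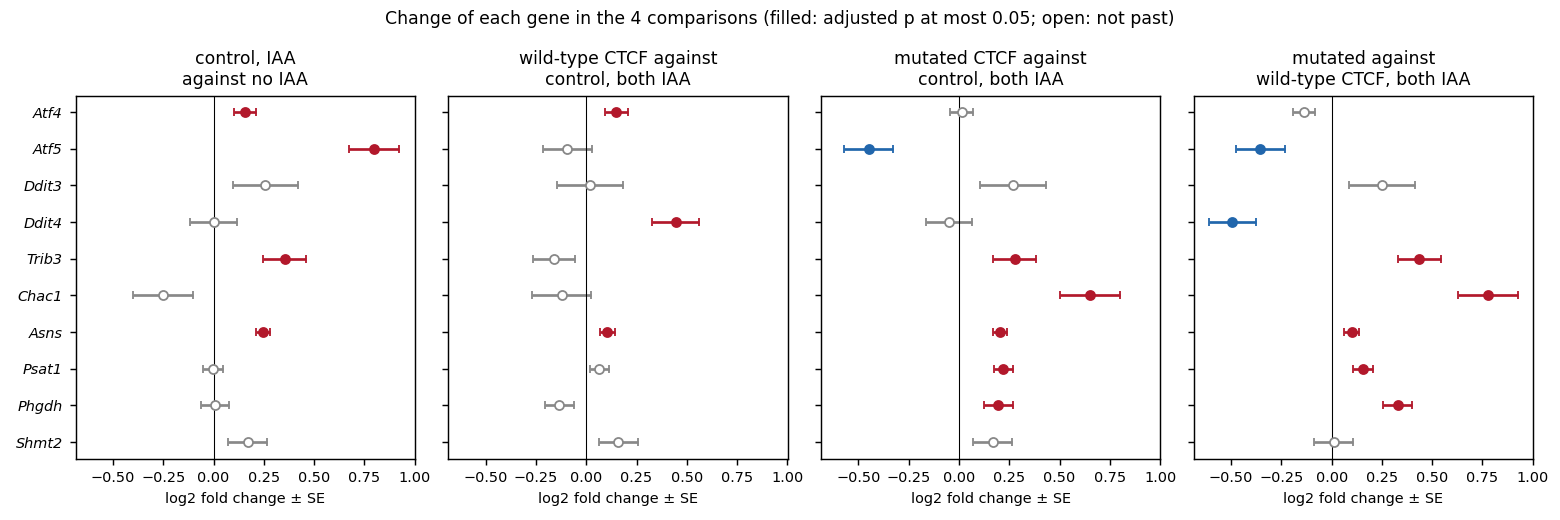
Log2 change (horizontal axis) with its standard error for the 10 genes in 4 comparisons, with filled points where the adjusted p was at most 0.05 (red higher, blue lower) and open points where it was not. Between the CTCF forms Chac1 had the largest positive value, 0.78, and Ddit4 the most negative, -0.49.

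Against the untreated control, mutated CTCF with IAA had 9 of the 10 genes higher and 0 lower, where 37.8% of all genes passed, 24% higher and 13.7% lower. Trib3 (log2 change 0.63, SE 0.10, adjusted p = 5.9e-06) and Asns (log2 change 0.45, SE 0.035, adjusted p = 1.6e-13) passed in all 13 alternatives. Ddit3, which passed in none of the contrasts above, stood at 98.9 ± 6.9 against 68.4 ± 5.7 normalized reads (log2 change 0.53, SE 0.16, adjusted p = 0.0091). Chac1 (log2 change 0.40, SE 0.15, adjusted p = 0.031), Atf5 (log2 change 0.35, SE 0.12, adjusted p = 0.021), Shmt2 (log2 change 0.34, SE 0.097, adjusted p = 0.005), Psat1 (log2 change 0.22, SE 0.049, adjusted p = 0.00035), Phgdh (log2 change 0.20, SE 0.072, adjusted p = 0.022) and Atf4 (log2 change 0.17, SE 0.056, adjusted p = 0.014) were also higher, and Ddit4 did not pass (log2 change -0.049, SE 0.12, adjusted p = 0.78). The median over the 10 genes was 0.34, beside 0.051 over all genes tested, and 9 of 10 had libraries that did not overlap between the groups, beside 67.9% of all genes. The count past the threshold, for which the share of all genes in the same fits is not given here, was 5 with equal library totals and 3 without the trend. It was 3 and 5 without untreated control replicates 1 and 2, and 7 and 5 without mutated CTCF replicates 1 and 2. Ddit3 was lost without untreated control replicate 1 (adjusted p = 0.11) and without mutated CTCF replicate 2 (adjusted p = 0.088). Chac1 was lost with median-of-ratios scaling (adjusted p = 0.054), with equal library totals (adjusted p = 0.083), without the trend (adjusted p = 0.063), without untreated control replicate 1 (0.23, adjusted p = 0.39), without mutated CTCF replicate 1 (adjusted p = 0.063) and without mutated CTCF replicate 2 (adjusted p = 0.16). Atf4 was lost with median-of-ratios scaling (adjusted p = 0.062), with equal library totals (0.086, adjusted p = 0.19), without the trend (adjusted p = 0.14), without untreated control replicate 1 (adjusted p = 0.064), without untreated control replicate 2 (adjusted p = 0.1) and without mutated CTCF replicate 2 (adjusted p = 0.089). Phgdh was lost with median-of-ratios scaling (adjusted p = 0.053), with equal library totals (0.12, adjusted p = 0.15), without the trend (adjusted p = 0.069), without untreated control replicate 1 (adjusted p = 0.1), without untreated control replicate 2 (adjusted p = 0.11) and without mutated CTCF replicate 2 (0.13, adjusted p = 0.29). Atf5 was lost with equal library totals (adjusted p = 0.08), without the trend (adjusted p = 0.16), without untreated control replicate 1 (adjusted p = 0.088), without untreated control replicate 2 (adjusted p = 0.15) and without mutated CTCF replicate 1 (adjusted p = 0.19). Shmt2 was lost without the trend (adjusted p = 0.13), without untreated control replicate 1 (adjusted p = 0.056) and without untreated control replicate 2 (adjusted p = 0.058). Psat1 was lost without the trend (adjusted p = 0.065). Among fits that kept the call, the value moved by over 1.5 times for Psat1 with equal library totals (0.14).

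Wild-type CTCF with IAA, set against the untreated control, had 5 of the 10 genes higher and 1 lower, where 43.2% of all genes passed, 27.6% higher and 15.6% lower. Atf5 (log2 change 0.70, SE 0.12, adjusted p = 1e-05), Ddit4 (log2 change 0.44, SE 0.12, adjusted p = 0.0018), Asns (log2 change 0.35, SE 0.035, adjusted p = 1.3e-10) and Atf4 (log2 change 0.31, SE 0.056, adjusted p = 1.9e-05) were higher in all 13 alternatives. Shmt2 was higher (log2 change 0.33, SE 0.097, adjusted p = 0.0056) and Chac1 lower (log2 change -0.38, SE 0.15, adjusted p = 0.039). The median over the 10 genes was 0.29, beside 0.053 over all genes tested, and 9 of 10 had libraries that did not overlap between the groups, beside 71.5% of all genes. Shmt2 was lost without the trend (adjusted p = 0.13), without untreated control replicate 1 (adjusted p = 0.056), without untreated control replicate 2 (adjusted p = 0.06) and without wild-type CTCF replicate 2 (0.11, adjusted p = 0.45). Chac1 was lost without the trend (adjusted p = 0.064), without untreated control replicate 2 (-0.20, adjusted p = 0.42), without wild-type CTCF replicate 1 (adjusted p = 0.065) and without wild-type CTCF replicate 2 (adjusted p = 0.13). Among fits that kept the call, the value moved by over 1.5 times for Shmt2 without wild-type CTCF replicate 1 (0.55). These contrasts share the untreated libraries with the IAA effect in the control line. Asns was the member that passed as higher than the untreated control in all 3 IAA groups under each of the 13 alternatives.

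Split by the promoter letters, 2 of the 3 genes with TGATGNAA and 2 of the 7 without passed as higher with IAA, beside 19.4% of all genes. Set against the control with IAA, these counts were 1 and 2 for wild-type (all genes 21.5%) and 3 and 2 for mutated CTCF (all genes 22%). Between the CTCF forms 3 of 3 and 2 of 7 were higher with mutated CTCF (all genes 16.3%). Against the untreated control they were 3 and 6 with mutated (all genes 24%) and 1 and 4 with wild-type CTCF (all genes 27.6%). Those that passed as lower were 1 of 3 in the last of these (all genes 15.6%). With mutated CTCF they were 1 of 7 against the control with IAA (all genes 12.4%) and 2 of 7 against wild-type CTCF (all genes 18.4%). With 3 and 7 genes, these counts were given no test and no difference is drawn from them.

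The 10 genes did not follow a common pattern over the 4 groups. Centred on the mean of each gene over the 8 libraries, mutated CTCF was the highest group for Ddit3, Trib3, Chac1, Asns, Psat1, Phgdh and Shmt2, from 0.13 at Shmt2 to 0.46 at Chac1 on the log2 scale. At Shmt2 wild-type CTCF stood nearly as high, at 0.12. Wild-type CTCF was highest for Atf4 (0.15) and Ddit4 (0.34), and the control with IAA for Atf5 (0.34). The untreated control was lowest for Atf4, Atf5, Ddit3, Trib3, Asns and Shmt2. The spread between the highest and lowest group ran from 0.22 at Psat1 to 0.80 at Atf5.

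**Figure D3:**
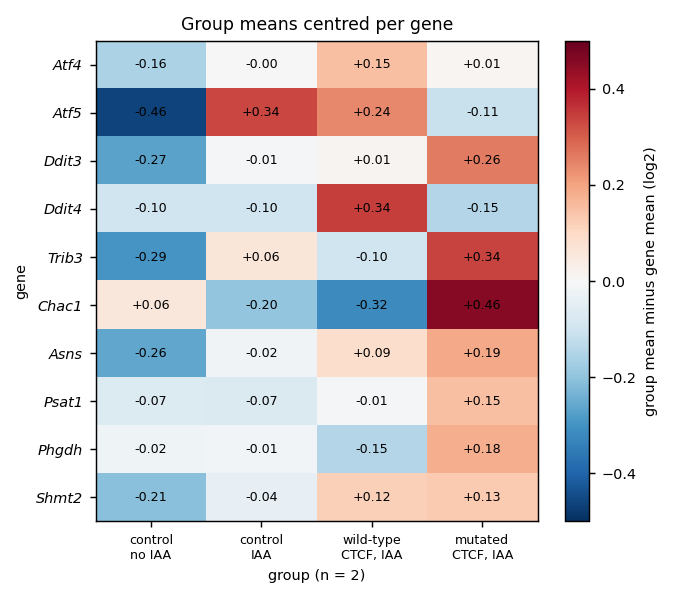
Group means on the log2 scale (columns, 2 libraries each) minus the mean of each gene over the 8 libraries (rows), with colour and printed number showing the same value. The mutated CTCF column is positive for Ddit3, Trib3, Chac1, Asns, Psat1, Phgdh and Shmt2, barely so for Atf4 (0.011), and negative for Atf5 (-0.11) and Ddit4 (-0.15).

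Genes with the most similar profile were sought for Atf4 and for Atf5, the member with the widest range, among 11850 genes with a mean of at least 50. Likeness was the root mean square difference of centred log2 values over the 8 libraries, given as a description. Genes near Atf4 included Rpl35, Stip1, Slc12a9 and Nadk, 0.024 to 0.034 away, where the profile of Atf4 had a root mean square of 0.12 and the median gene stood 0.17 away. Rpl35, a ribosomal protein gene, had 1269 ± 17 normalized reads in the untreated libraries, 1431 ± 87 in the control with IAA, 1554 ± 104 with wild-type CTCF, then 1428 ± 77 with mutated CTCF. The 5 nearest to Atf5 were Gng3, Gm9833, Mylk, Zfp607b and Mlst8, 0.10 to 0.13 away, where the profile of Atf5 had a root mean square of 0.34 and the median gene stood 0.36 away.

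Counts over the other lists of the pathway can be read against the shares of all genes tested: 19.4% of all genes higher and 18.4% lower with IAA, 21.5% of all genes higher and 10% lower with wild-type and 22% of all genes higher and 12.4% lower with mutated CTCF against the control with IAA, and 16.3% of all genes higher and 18.4% lower between the CTCF forms. Upstream of ATF4, the 5 genes of the eIF2α kinase list include Gcn1, an activator of GCN2. With IAA 0 rose and 1 fell, the GCN2 gene Eif2ak4 (log2 change -0.14, SE 0.056, adjusted p = 0.047). In the direct contrast of the CTCF forms 0 were higher and 1 lower, Gcn1 (log2 change -0.21, SE 0.066, adjusted p = 0.01). Set against the control with IAA, 3 were higher and 1 lower with wild-type CTCF, and 2 higher and 1 lower with mutated CTCF. The PKR gene Eif2ak2 was higher with wild-type (log2 change 0.26, SE 0.064, adjusted p = 0.0018) and mutated CTCF (log2 change 0.29, SE 0.064, adjusted p = 0.00043). Eif2ak3, which encodes the endoplasmic reticulum kinase PERK, was lower with wild-type (log2 change -0.29, SE 0.047, adjusted p = 6.7e-06) and mutated CTCF (log2 change -0.18, SE 0.047, adjusted p = 0.0026). Of the 10 genes for eIF2, its exchange factor eIF2B and the eIF2α phosphatase, 2 rose and 1 fell with IAA. Eif2b5, the catalytic subunit of eIF2B, rose with IAA in the control line from 690.3 ± 62 to 1362 ± 30 normalized reads (log2 change 0.98, SE 0.062, adjusted p = 1.4e-16). Set against the control with IAA, 5 were higher and 0 lower with wild-type CTCF, and 4 higher and 0 lower with mutated CTCF. Between the CTCF forms 1 was higher and 0 were lower. That gene was Ppp1r15a, which encodes the stress-induced phosphatase subunit GADD34 (log2 change 0.38, SE 0.11, adjusted p = 0.0062). Some calls were lost under alternatives. Eif2ak4 was lost without the filter, without the trend and with each library left out (log2 change of -0.19 to -0.13 over the alternatives). Gcn1 was lost with only those groups fitted, without the trend, without wild-type CTCF replicate 2 and without mutated CTCF replicate 1 (-0.34 to -0.087). Ppp1r15a was lost without the trend, without wild-type CTCF replicate 1 and without mutated CTCF replicate 1 (0.28 to 0.48). The calls on Eif2ak2, Eif2ak3 and Eif2b5 held in each alternative.

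Among 7 tested bZIP partners and relatives of ATF4, Atf3, a stress-induced repressor, stood at 148 ± 7.6 normalized reads in the untreated libraries, 87.4 ± 23 in the control with IAA, 63.2 ± 23 with wild-type CTCF, then 107 ± 14 with mutated CTCF. It fell with IAA (log2 change -0.77, SE 0.18, adjusted p = 8e-04), where Atf5 rose. It was higher with mutated than with wild-type CTCF (log2 change 0.80, SE 0.18, adjusted p = 0.00068), as Chac1 and Trib3 were. Over the list 1 rose and 2 fell with IAA, and 1 was higher and 0 lower between the CTCF forms. Of the 9 tested feedback genes and mTORC1 brakes, 3 were higher and 3 lower with mutated than with wild-type CTCF. Nupr1, a small stress-induced chromatin protein, was higher (log2 change 0.52, SE 0.11, adjusted p = 0.00035), and Ndrg1 was lower (log2 change -0.47, SE 0.093, adjusted p = 0.00011), as Ddit4 was. The Atf3 calls were lost for IAA and between the forms without the trend and without 1 library, control-with-IAA replicate 1 and wild-type CTCF replicate 1 in that order. Over the alternatives the log2 change of Atf3 ran from -1.04 to -0.51 for IAA and from 0.43 to 1.16 between the forms.

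Of 12 further genes of serine, one-carbon and other amino acid synthesis, 1 rose and 4 fell with IAA. Set against the control with IAA, 5 rose and 3 fell with wild-type CTCF, and 7 rose and 0 fell with mutated CTCF, where 22% and 12.4% of all genes did. Between the CTCF forms 5 were higher and 2 lower with mutated CTCF, beside 16.3% and 18.4% of all genes. The median of the list in the last contrast was 0.17, beside -0.0087 over all genes. Gpt2, an alanine aminotransferase, was higher with mutated than with wild-type CTCF (log2 change 0.51, SE 0.050, adjusted p = 1.2e-10), as were Psph, the last step of serine synthesis (log2 change 0.28, SE 0.094, adjusted p = 0.017), and Got1, an aspartate aminotransferase (log2 change 0.26, SE 0.051, adjusted p = 8.7e-05). The lower genes, Mthfd1 (log2 change -0.13, SE 0.036, adjusted p = 0.0037) and Mthfd1l (log2 change -0.12, SE 0.036, adjusted p = 0.006), belong to one-carbon metabolism and were chosen after their values were seen. Mthfd2, of the mitochondrial one-carbon pathway that Shmt2 feeds, fell with IAA (log2 change -0.38, SE 0.087, adjusted p = 0.00053). It passed as higher with mutated than with wild-type CTCF, at 359 ± 1.1 against 300 ± 3.3 normalized reads. That call was lost with each library left out (log2 change of 0.24 to 0.27 over the alternatives). Of the other calls named here, Psph was lost without the trend, without wild-type CTCF replicate 1 and without mutated CTCF replicate 2 (0.20 to 0.36). Mthfd1 was lost without the trend and without mutated CTCF replicate 1 (-0.18 to -0.088). Mthfd1l was lost without the trend, without wild-type CTCF replicate 2 and without mutated CTCF replicate 1 (-0.15 to -0.094).

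Of 12 amino acid transporter genes, 5 rose and 4 fell with IAA. Set against the control with IAA, 5 were higher and 3 lower with wild-type CTCF, and 6 higher and 3 lower with mutated CTCF, where 21.5% and 22% of all genes were higher. Between the forms 2 were higher and 3 lower with mutated than with wild-type CTCF, near the shares of all genes (16.3% and 18.4%). Slc38a4 stood at 349 ± 43 normalized reads with mutated and 996 ± 33 with wild-type CTCF (log2 change -1.51, SE 0.079, adjusted p = 9.9e-19). Slc38a2, which encodes the carrier SNAT2, was also lower with mutated CTCF (log2 change -0.52, SE 0.059, adjusted p = 3.9e-09), where Asns and Chac1 were higher. The higher transporters, chosen after their values were seen, were Slc1a4 (log2 change 0.51, SE 0.070, adjusted p = 1.8e-07) and Slc38a1 (log2 change 0.30, SE 0.039, adjusted p = 7.1e-08). Of 20 cytosolic aminoacyl-tRNA synthetases, which charge tRNAs with amino acids, 9 rose and 0 fell with IAA, where 19.4% and 18.4% of all genes did, with a median of 0.11. Qars (log2 change 0.33, SE 0.083, adjusted p = 0.0017) and Mars1 (log2 change 0.27, SE 0.074, adjusted p = 0.0038) had the largest rises. Against the untreated control 13 were higher with wild-type and 15 with mutated CTCF, and 0 were lower with either form. Of all genes, 27.6% and 24% were higher. With the filter at 50, above which all 20 lay, 4030 and 3605 of 11860 genes were higher. The calls lost with wild-type CTCF, both with equal library totals and without the trend, included Cars, Farsb, Kars and Lars. Between the CTCF forms 6 were higher with mutated CTCF, led by Yars (log2 change 0.30, SE 0.049, adjusted p = 5.1e-06), and 4 lower, led by Vars (log2 change -0.29, SE 0.076, adjusted p = 0.0026). The synthetases that rose with IAA numbered 3 without the trend, where 1952 of 15818 genes rose, beside 3062 in the main fit. Without untreated control replicate 1 the rises of Aars, Lars, Mars1 and Tars were lost. Of the calls named, Qars was lost without the trend (adjusted p of up to 0.078). Mars1 was lost without the trend, without untreated control replicate 1 and without control-with-IAA replicate 1 (log2 change of 0.18 to 0.35 over the alternatives). Vars was lost without the trend, without wild-type CTCF replicate 2 and without mutated CTCF replicate 1 (-0.40 to -0.18).

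**Figure D4:**
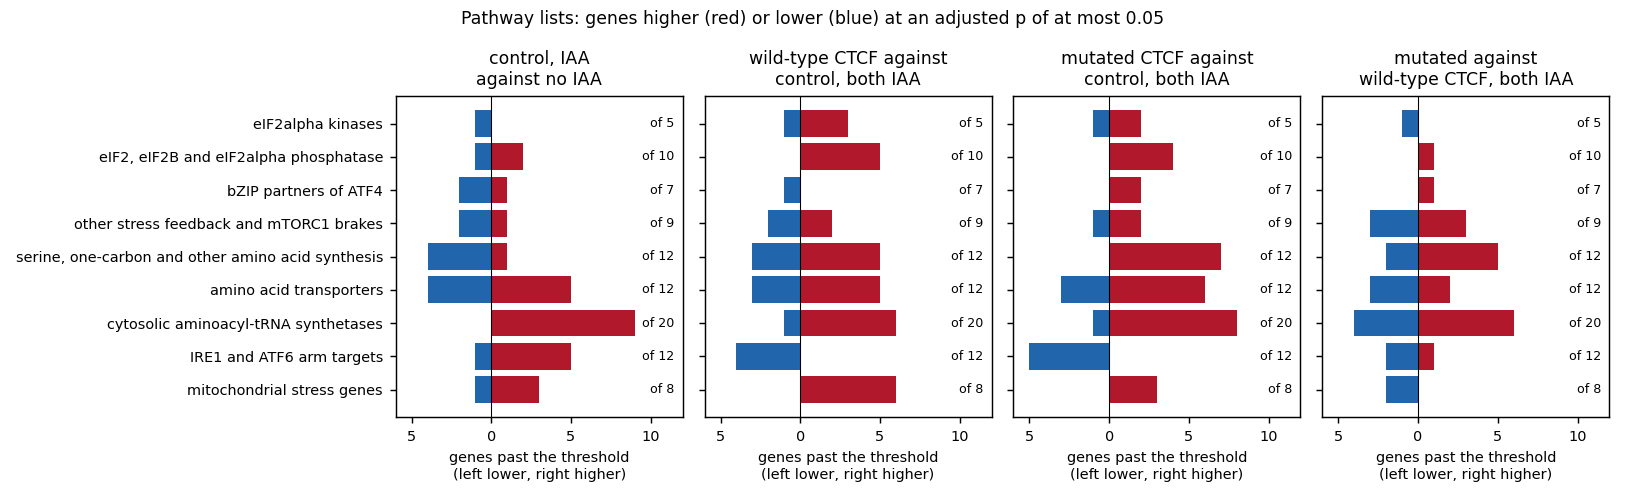
Number of genes of each list past the threshold (horizontal axis; left of 0 lower, right of 0 higher) in 4 comparisons, with the number tested at the right of each panel. The tRNA synthetases rise at 9 of 20 genes with IAA, and the amino acid synthesis genes at 7 of 12 with mutated CTCF against the control.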

How the data were processed

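TT-seq libraries of 8 samples in 4 groups of 2 were analysed. The submitters' processing notes name Trim Galore, STAR, featureCounts, DESeq2 and mm10; versions, annotation and strand setting are not given in the sources used here. The authors deposited a normalized signal per gene, in which 100% of values in each library were whole multiples of 1 step (tolerance 0.01), from which reads were taken as a guide to depth. For mutated CTCF replicate 2 the step (0.989) lay too close to 1 for the check to accept the multiples as reads. Its reads are therefore uncertain, and planned count tests were not run.

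Log2(value + 1) was tested with limma 3.58.1 in R 4.3.3: 1 coefficient per group, eBayes with a mean-variance trend, genes averaging 10 or more, and Benjamini-Hochberg adjustment over the 15818 genes of each of 6 comparisons at 0.05. The 13 alternatives per result, run on the members and on calls and counts of the other lists, were a pseudocount of 0.5 or 10, no filter or one at 50, median-of-ratios or equal-total scaling, only the compared groups, no trend, replicate number as a block, and each of 4 libraries left out. A library then alone in its group is assumed to vary like the others.

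All members were named, with at most 3 genes per list and comparison that passed, averaged 50 or more and changed most, and 5 nearest profiles, of which 1 is not reported here. Members and lists were chosen with earlier results of these data known. Positions come from GENCODE M21 on GRCm38, where 16917 of the 16940 gene IDs were found.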

Additional observations from a re-analysis of the deposited data

How the results depend on the processing

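Leaving out the mean-variance trend lowered the counts of members past the threshold from 3 to 1 (wild-type CTCF against the control, both with IAA), 6 to 1 (mutated CTCF against that control), 7 to 4 (between the CTCF forms) and 9 to 3 (mutated CTCF against the untreated control). With equal totals the last was 5, where 38% of all genes passed. Without the trend the share of all genes passing fell too in these comparisons. It went from 31.6% to 15%, 34.3% to 20.4%, 34.7% to 20.6% and 37.8% to 24.5%, in that order. With 1 library left out the counts ran from 2 to 3 for IAA, 1 to 5 and 3 to 5 for wild-type and mutated CTCF against the control with IAA, 4 to 6 between the CTCF forms, and 4 to 6 and 3 to 7 for wild-type and mutated CTCF against the untreated control. With the replicate block they were 4, 3, 6, 8, 6 and 9 in that order, Atf4 (adjusted p = 0.038) being the added call between the CTCF forms. The block raised the share of all genes passing too, from 37.7% to 40.6% for IAA and from 34.7% to 37.8% between the CTCF forms. Against the control with IAA it went from 31.6% to 35% with wild-type and from 34.3% to 37.4% with mutated CTCF. Against the untreated control it went from 43.2% to 45.8% with wild-type and from 37.8% to 40.4% with mutated CTCF. In all 6 comparisons this share was lower than in the main fit with each library left out. Same-numbered replicates did not deviate together gene by gene (correlations across genes of -0.022 to 0.028 over 6 pairs of groups). A shift common to all genes would not show there, so whether they share more than a number was not settled. Changes of sign were limited to values that did not pass. With equal totals Ddit4 (-0.050) and Phgdh (-0.044) changed sign with IAA, Ddit3 (-0.011) with wild-type and Atf4 (-0.019) with mutated CTCF against the control, and Psat1 (-0.018) with wild-type CTCF against the untreated control. With median-of-ratios scaling Psat1 (0.00065) did with IAA, Ddit3 (-0.036) with wild-type and Atf4 (-0.038) with mutated CTCF. With 1 library left out such values ranged over -0.049 to 0.051 (Ddit4) and -0.041 to 0.038 (Psat1) with IAA, and over -0.28 to 0.095 (Atf5), -0.067 to 0.11 (Ddit3), -0.0098 to 0.14 (Psat1) and -0.059 to 0.38 (Shmt2) with wild-type and -0.068 to 0.093 (Atf4) with mutated CTCF against the control. They ranged over -0.21 to 0.23 (Shmt2) between the CTCF forms, and -0.011 to 0.14 (Psat1) with wild-type and -0.10 to 0.0016 (Ddit4) with mutated CTCF against the untreated control. The cause was not tested. The members with the lowest levels, Ddit3 and Chac1, had the largest standard errors. All members averaged above 50, and genes at such levels passed more often than all genes tested. With the filter at 50, 45.1% of 11860 genes passed for IAA and 40.6% between the CTCF forms. Against the control with IAA 39.7% passed with wild-type and 43% with mutated CTCF. Against the untreated control these shares were 51.6% and 45.7%. The planned edgeR and DESeq2 fits were not run.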

Other observations

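The IRE1 and ATF6 arms of the unfolded protein response raise chaperones of the endoplasmic reticulum. Of 12 targets of these arms, 5 rose and 1 fell with IAA, where 19.4% and 18.4% of all genes did (median log2 change 0.17, beside -0.0016 over all genes), led by Creld2 (log2 change 0.44, SE 0.11, adjusted p = 0.0014, limma) and Hyou1 (log2 change 0.26, SE 0.077, adjusted p = 0.0063). Set against the control with IAA, 0 were higher and 4 lower with wild-type CTCF, and 0 were higher and 5 lower with mutated CTCF, where 10% and 12.4% of all genes were lower. Hspa5, the chaperone BiP, was lower with mutated CTCF than in the IAA-treated control (log2 change -0.32, SE 0.044, adjusted p = 2.3e-07), where Chac1, Trib3 and Asns were higher. Herpud1 was lower with wild-type CTCF than in that IAA-treated control (log2 change -0.51, SE 0.10, adjusted p = 0.00021), and between the CTCF forms it was higher with mutated CTCF (log2 change 0.36, SE 0.10, adjusted p = 0.0069). Against the untreated control 3 of the 12 targets were higher and 3 lower with wild-type CTCF, and 1 higher and 2 lower with mutated CTCF, where 27.6% and 15.6%, and 24% and 13.7%, of all genes were. Of the calls named, Hyou1 was lost without the trend, without untreated control replicate 1 and without control-with-IAA replicate 1 (log2 change of 0.18 to 0.34 over the alternatives). Between the CTCF forms Herpud1 was lost without the trend and without mutated CTCF replicate 2 (0.22 to 0.49). With IAA the rise of Manf was lost in the same fits as that of Hyou1 (0.13 to 0.35). The fall with IAA, at Dnajb9, was lost without the trend and with each library left out (-0.25 to -0.16). The rises of Hspa5, Hsp90b1 and Creld2 with IAA held in each alternative. After median-of-ratios scaling the targets lower than in the IAA-treated control numbered 8 for wild-type and 8 for mutated CTCF, and they numbered 1 and 3 without the trend. Over all genes, 2547 of 5059 calls were higher under median-of-ratios scaling with wild-type and 2707 of 5390 with mutated CTCF. In the main fit these were 3407 of 4991 and 3473 of 5433, so lower calls became more frequent over all genes too. Without the trend 15% and 20.4% of all genes passed in either direction, beside 31.6% and 34.3% in the main fit.

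Of 8 mitochondrial stress genes, 6 rose and 0 fell when wild-type CTCF was set against the control with IAA, where 21.5% and 10% of all genes did (median 0.27, beside 0.057 over all genes), led by the protease gene Clpp (log2 change 0.35, SE 0.099, adjusted p = 0.0056). Between the CTCF forms 2 were lower with mutated CTCF, the partner chaperones Hspd1 (log2 change -0.19, SE 0.039, adjusted p = 0.00018) and Hspe1 (log2 change -0.21, SE 0.060, adjusted p = 0.0062), and 0 were higher, where 18.4% of all genes were lower and 16.3% higher. The genes higher with wild-type CTCF than in that control numbered 2 without the trend, where 1590 of 15818 genes were higher, beside 3407 in the main fit. Of the calls named, Clpp was lost without the trend and without control-with-IAA replicate 1 (log2 change of 0.186 to 0.515 over the alternatives). Hspd1 was lost without the trend (-0.24 to -0.14), and Hspe1 without the trend and without mutated CTCF replicate 2 (-0.28 to -0.13).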
